A study of Mus musculus with 2 samples.

Results

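Homing and adhesion receptors anchor haematopoietic stem cells (HSC) in the bone marrow and guide them back to it after transplantation. The genes described here are 9 receptors or receptor subunits of that kind: Cd44, Itga6, Itga4, Itgb1, Itgb2, Itgal, Itgam, Selplg and Cxcr4. They were taken by name, and every probe set that the array annotation gives to 1 of these symbols was used. That rule found 18 of the 22690 probe sets and 9 of the 12393 genes on the array. The samples were 2 stem cell populations sorted by flow cytometry from mouse bone marrow, 1 labelled primitive and 1 labelled maturing, and neither was treated. Both were kept in culture for a short time before the sort. Strain, age, number of mice and the antibodies of the sort are not stated in the labels used here, so it is not known whether a receptor described here was itself a sort antigen. Each array was hybridised with material copied from a PCR-amplified, size-selected phage cDNA library rather than with RNA taken straight from the cells.

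An integrin is a pair of subunits, alpha and beta, and the pair decides which ligand is bound. Itga4 and Itga6 pair with Itgb1, the former for VCAM1 and fibronectin and the latter for laminins. Itgal and Itgam pair with Itgb2 to make the leukocyte integrins LFA-1 and Mac-1, which bind ICAM proteins. CD44 binds hyaluronan, the product of Selplg (PSGL-1) binds selectins on the vessel wall, and CXCR4 is the receptor of the chemokine CXCL12, which marrow stroma makes.

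There was 1 array per population, so differences between them have no sample spread to be judged by, and no p-value is given. Ratios are log2 of primitive over maturing intensity. Intensities under 441.0, the median of all non-control probe sets on both arrays, were set to that floor, so a gene above it on a single array gives only a bound, the least the difference can be, and a gene below it on both arrays was not measured. The only spread that these data hold is that between probe sets of a gene, with an SD of 0.82 on the log2 scale over 1318 genes. The spiked hybridisation controls were brighter on the primitive array, with a median log2 ratio of 0.97. When they were set equal, the median ratio over the 5525 genes measured on both sides fell by 0.77, from 0.09 to -0.68.

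The receptors did not move as a group. Cd44 was much dimmer on the primitive array and Itga6 was dimmer, while Itgb2, Cxcr4, Selplg and the brightest probe set of Itgb1 were brighter there by less than 3-fold. Of the 9 genes, 7 were measured, 5 of them above the floor on both arrays, and Itga4 and Itgam were below it on both. At 4-fold or more, 1 of the 7 (Cd44) was higher in maturing HSC, against 4.69% of the 8852 measured genes, and 0 of the 7 were higher in primitive HSC, against 3.45%. At 2-fold or more, 2 of the 7 (Cd44 and Itga6) were higher in maturing HSC, against 17.6% of measured genes, and 1 of the 7 (Itgb1) in primitive HSC, against 15.6%. Counting any size, 5 of the 7 were higher in primitive HSC and 2 in maturing HSC, against 52.7% and 47.3% of measured genes. Among single probe sets, 9 of the 18 were measured, of which 2 were higher in maturing HSC and 0 in primitive HSC by 4-fold or more, against 4.76% and 3.03% of the 12964 measured probe sets with 1 symbol. The median log2 ratio of the 7 was 0.30, against 0.07 over all measured genes. With the hybridisation controls set equal, 8 receptor genes were measured, 1 higher in primitive and 7 higher in maturing HSC. Their median was then -0.35, against -0.68 over all genes above the floor on both arrays under that scaling. The counts of the main setting also depend on which probe set stands for Itgb1. With its other measured probe set, an alternative added after the values were seen, 2 of the 7 (Cd44 and Itgb1) were higher in maturing HSC by 4-fold or more, 0 were higher in primitive HSC by 2-fold or more, the split at any size was 4 and 3, and the median was 0.01.

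**Figure D1:**
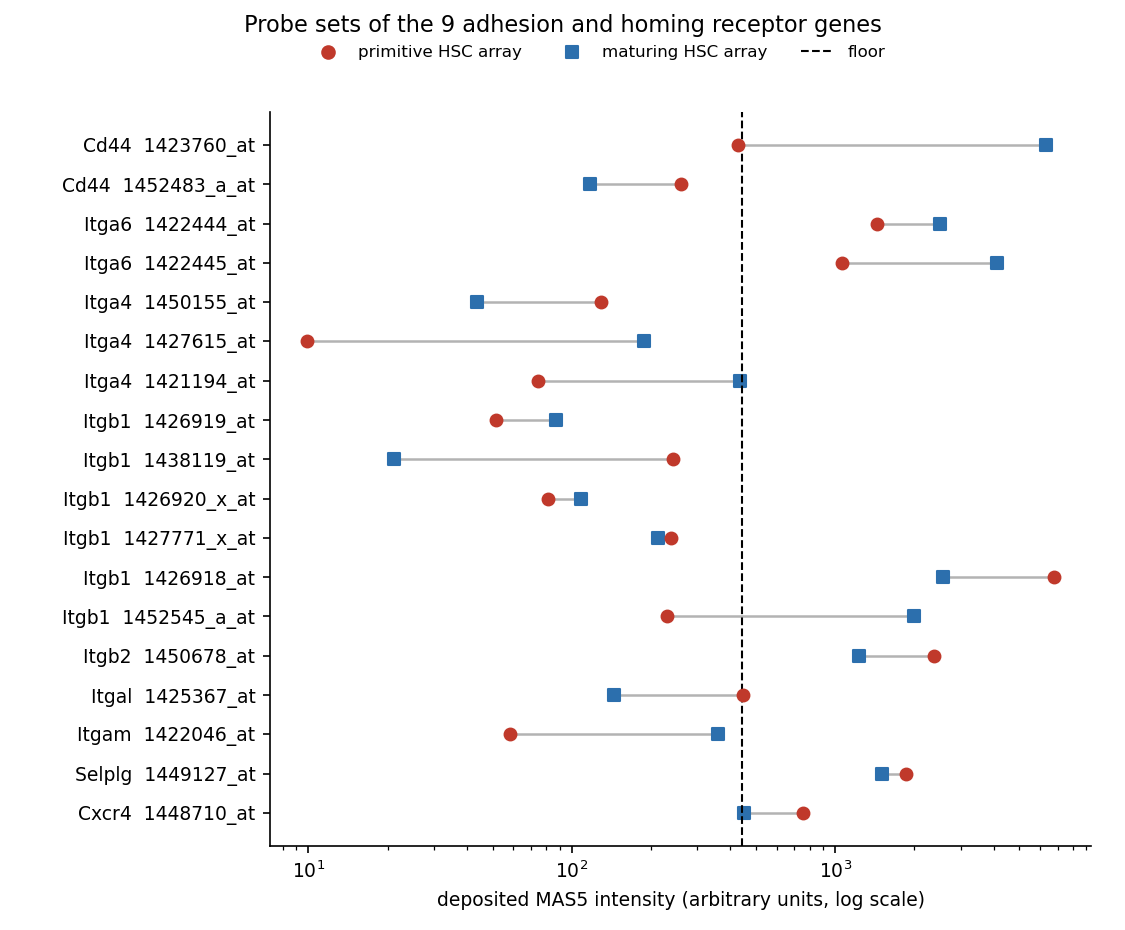
Deposited intensity (log scale) of each of the 18 probe sets on the primitive (red circles) and the maturing array (blue squares), joined by a grey line, with the floor of 441.0 dashed. Of the 18, 9 lie below the floor on both arrays, and Cd44 probe set 1423760_at and Itgb1 probe set 1452545_a_at are the 2 that run from below the floor on the primitive array to far above it on the maturing array.

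Cd44, the hyaluronan receptor that lets stem cells hold to the marrow matrix, had the largest difference of the 9 genes. Probe set 1423760_at read 428 on the primitive and 6332 on the maturing array. The primitive value lay just under the floor, so the gene was higher in maturing HSC by at least 14.4-fold (a bound of -3.84 on the log2 scale). Its second probe set, 1452483_a_at, read 259 and 117 and was below the floor on both arrays. With the floor at percentile 25 that probe set had a bound of 0.88, toward primitive HSC. The value of Cd44 therefore rests on 1 probe set. The bound ran from -4.35 with the hybridisation controls set equal to -2.62 with the floor at percentile 75, and it was -2.87 when the median of both probe sets was taken.

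Itga6, the alpha 6 chain of the laminin receptor and an antigen used to sort human stem cells, was also lower in primitive HSC. Probe set 1422445_at read 1062 on the primitive and 4126 on the maturing array, a 3.89-fold difference (log2 -1.96). Probe set 1422444_at read 1445 and 2508, a 1.74-fold difference the same way (log2 -0.80). Neither probe set reached down to the floor, and they shared a direction. Their gap of 1.16 was larger than the median gap of 0.97 among 2764 genes with several measured probe sets. Of the measured genes, 5.04% lay further toward maturing HSC than the brighter probe set. That probe set just missed 4-fold and passed it with the median ratio set to 0 (-2.05) or the hybridisation controls set equal (-2.93).

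Itga4, the alpha 4 chain that binds VCAM1 on marrow stroma, could not be compared. Probe set 1421194_at read 74.6 and 433 on the primitive and maturing arrays, 1427615_at read 9.9 and 187, and 1450155_at read 129 and 43.6. All 3 lay below the floor on both arrays, where values have no order. With the floor lowered to percentile 25, probe set 1421194_at gave Itga4 a bound of -1.62.

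Itgb1, the beta 1 chain shared by the alpha 4 and alpha 6 integrins, gave opposite answers from its 2 measured probe sets. Probe set 1426918_at, the brightest, read 6771 on the primitive and 2571 on the maturing array, 2.63-fold higher in primitive HSC (log2 1.40). Probe set 1452545_a_at read 230 and 1987, higher in maturing HSC by at least 4.51-fold (a bound of -2.17). The former is the value used for the gene here, by the rule of the highest mean intensity, and the latter alone would have counted Itgb1 as called in the other direction. The gap between them was at least 3.57 on the log2 scale, and 1.77% of the 2764 genes with several measured probe sets (49 genes) had a gap as large. A total of 4.16% of those genes had probe sets at least 2-fold apart from equality in both directions, as Itgb1 did. The other 4 probe sets of Itgb1 read between 21.2 and 242 and were below the floor on both arrays. With the hybridisation controls set equal the pair stood at 0.42 and -2.68, so they disagreed under that scaling as well. With the median of its 6 probe sets, Itgb1 fell below the floor on both arrays and was not measured. The ratio of Itga6 and that of the brighter Itgb1 probe set, which code for partners in 1 receptor, thus pointed in opposite directions, while the dimmer Itgb1 probe set pointed the same way as Itga6.

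The RefSeq promoter table (GRCm38.p6) held 5 of the 9 genes. The 100 bases before the start are shown for the 3 of those 5 that were measured, so that the gene with the largest difference can be read beside receptors with smaller ones. Capitals mark GGAA on either strand (TTCC when read on the printed strand), the core bound by ETS factors such as PU.1. The windows are chr2:102901666-102901765 on the minus strand for Cd44, chr8:128685554-128685653 on the plus strand for Itgb1 and chr1:128592300-128592399 on the minus strand for Cxcr4.
Cd44: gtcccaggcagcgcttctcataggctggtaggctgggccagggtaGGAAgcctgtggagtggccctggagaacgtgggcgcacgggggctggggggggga
Itgb1: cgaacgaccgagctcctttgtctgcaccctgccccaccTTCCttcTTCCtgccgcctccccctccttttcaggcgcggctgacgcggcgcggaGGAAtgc
Cxcr4: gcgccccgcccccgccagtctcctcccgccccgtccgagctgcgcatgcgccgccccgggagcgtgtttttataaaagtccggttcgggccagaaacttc
Cd44 had 1 match to GGAA, Itgb1 had 3 and Cxcr4 had 0, and 66.8% of the 32851 promoter windows of this length in the table held at least 1. The Itgam window, not printed, had 2 matches and the Itga4 window had 0. The GC box GGGCGG, searched on both strands, had 3 matches in Cxcr4, 1 in Itgam and 0 in the windows of Cd44, Itgb1 and Itga4, and 24.7% of all windows held it. TATAAA, searched on both strands, had 2 overlapping matches in Cxcr4 and 0 in the remaining 4 windows, and 5.56% of all windows held it. The RUNX core TGTGGT, on both strands, had 1 match in Itga4 and 0 in the remaining 4 windows, and 5.61% of all windows held it. GC content was 70.0% in Cd44 and in Itga4, 69.0% in Cxcr4, 67.0% in Itgb1 and 52.0% in Itgam, with a median of 55.0% over all windows. These matches describe letters and were not tested against the ratios.

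Of the leukocyte integrin genes, Itgb2 was above the floor on both arrays, and Itgal and Itgam were dim. Itgb2, the beta 2 chain common to LFA-1 and Mac-1, read 2369 on the primitive and 1236 on the maturing array with its 1 probe set. That is 1.92-fold higher in primitive HSC (log2 0.94), close to the probe set SD of 0.82, and 17.3% of the measured genes lay further toward primitive HSC. Itgal, the alpha chain of LFA-1, read 445 and 144 with its 1 probe set. The primitive value was barely above the floor and the bound was 0.01, which gives no size. With the floor at percentile 25 (140.6), both Itgal values were above it, the maturing one barely, and the log2 ratio was 1.63. With a floor at percentile 40, added after seeing the data, Itgal had a bound of 0.55. Itgam, the alpha chain of Mac-1 and a marker of myeloid cells, read 58.2 and 358 and was below the floor on both arrays. With the floor at percentile 25 its bound was -1.35.

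Selplg, the gene of the selectin ligand PSGL-1, read 1855 on the primitive and 1508 on the maturing array, a 1.23-fold difference (log2 0.30). Cxcr4 read 753 on the primitive and 449 on the maturing array, a 1.68-fold difference (log2 0.75), with the maturing value just above the floor. Each has 1 probe set on the array, and both ratios were smaller than the SD between probe sets. The directions of Itgb2, Cxcr4 and Selplg turned with the hybridisation controls set equal, to -0.04, -0.23 and -0.68, and these 3 genes were higher in primitive HSC under every other scaling tried. Relative to the median gene, the 3 stood at 0.85, 0.66 and 0.21 in the main setting and at 0.65, 0.46 and 0.01 with the controls set equal. That scaling lowered such ratios by 1 constant, so the lower standing reflects a median taken over another set of genes.

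**Figure D2:**
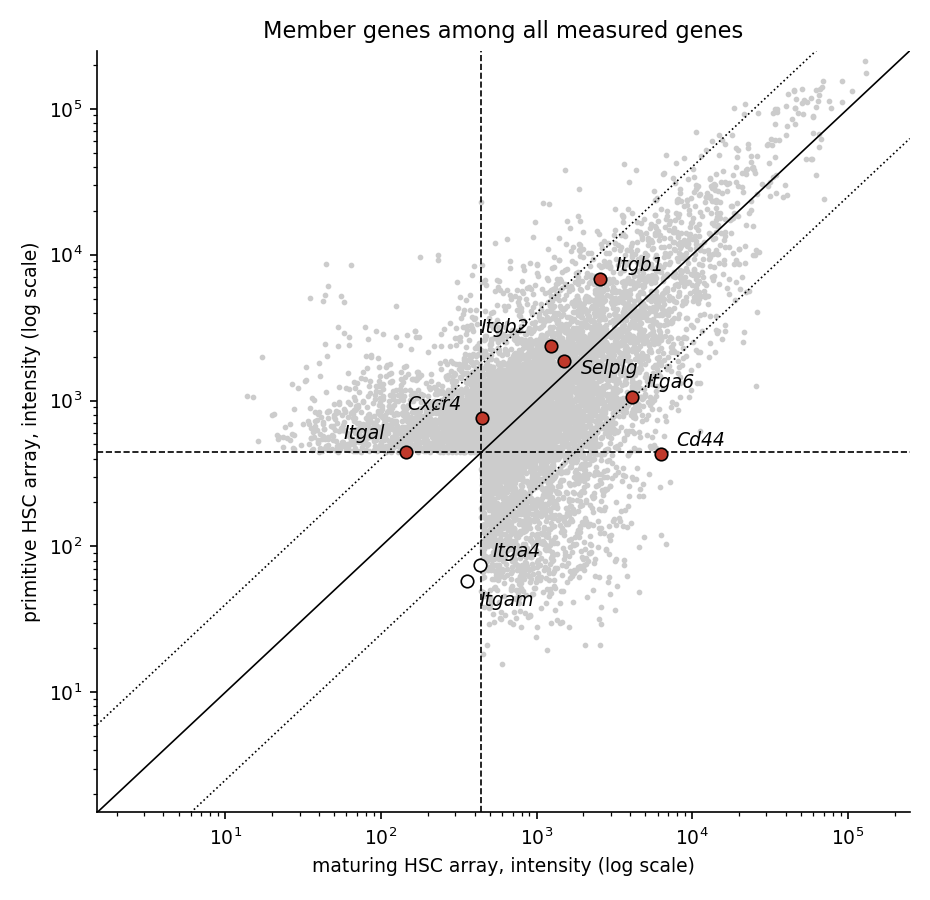
Intensity of each gene on the maturing array (x, log scale) and the primitive array (y, log scale), with grey points for measured genes and named circles for the 9 receptor genes (open where below the floor on both arrays). The solid line marks equality, dotted lines 4-fold and dashed lines the floor of 441.0. Cd44 lies beyond the 4-fold line, Itga6 just inside it, and the remaining filled circles nearer to equality or, for Itgal, at the floor.

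**Figure D3:**
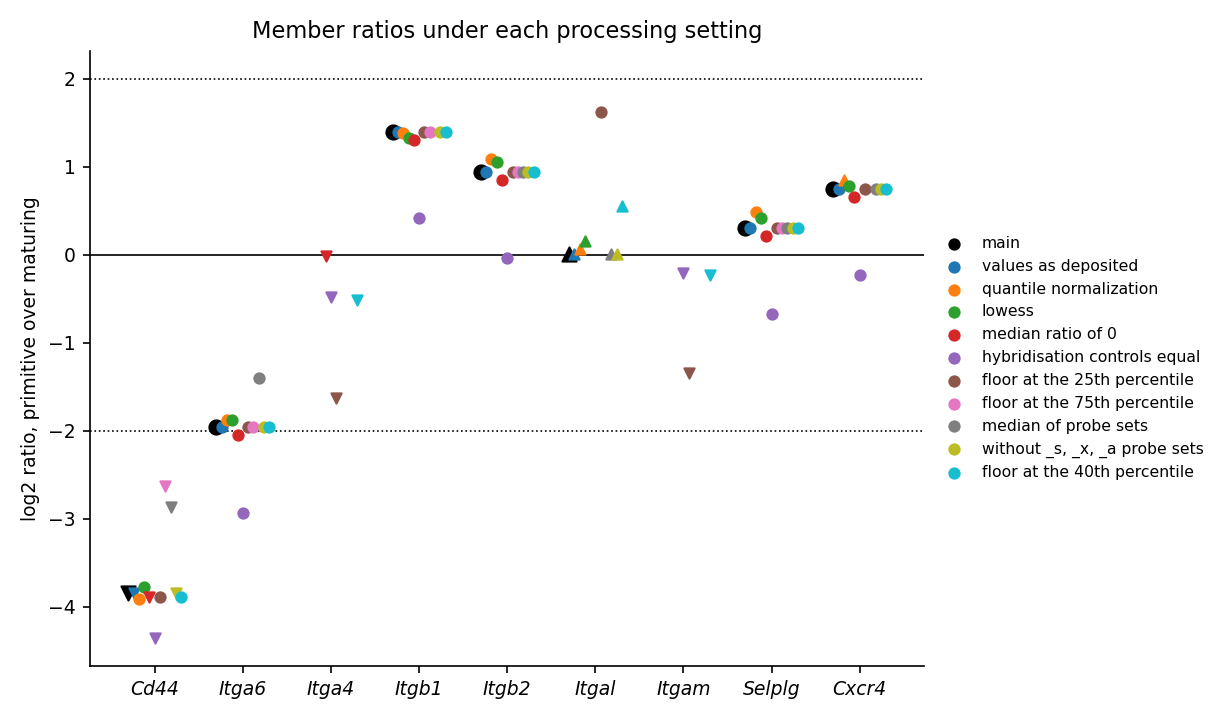
Log2 ratio of primitive over maturing for each receptor gene (y) under the main setting (black) and each alternative applied to all genes (colours), with circles for genes above the floor on both arrays, triangles pointing down for bounds toward maturing HSC and pointing up for bounds toward primitive HSC, and dotted lines at 4-fold. Cd44 and Itga6 stay below 0 throughout, from -4.35 to -2.62 and from -2.93 to -1.40, while Itgb2, Selplg and Cxcr4 fall below 0 only with the hybridisation controls set equal.

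The other integrin subunits showed no common direction. Of 20 genes listed, 15 were on the array and 9 were measured, 5 higher in primitive and 4 higher in maturing HSC, with a median of 0.08 and none past 4-fold. The shares over all measured genes were 52.7% and 47.3%, and 3.45% and 4.69% at 4-fold. Itgav, which pairs with several beta chains to bind vitronectin and fibronectin, read 1300 and 4472 (log2 -1.78), but a second probe set stood at 0.10. Itgb7, the alternative partner of Itga4 for gut homing, read 202 and 1065 and was higher in maturing HSC by at least 2.42-fold. Itgb5 stood at -0.75, and Itga2, a collagen receptor chain, was higher in primitive HSC by at least 2.49-fold. The sign of the list median depended on the setting: it was -0.01 with the median ratio set to 0, -1.18 with the hybridisation controls set equal, -0.05 with the floor at percentile 75, -0.36 when each gene took the median over its probe sets, and -0.19 when probe sets whose name suffix marks them as matching more than 1 transcript were dropped.

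Among genes that switch integrins on from inside the cell, or tie them to actin, more were higher in maturing than in primitive HSC. Of 29 genes listed, 25 were on the array and 23 were measured. In maturing HSC 16 of the 23 were higher, against 47.3% of all measured genes, and 2 of them by at least 4-fold, against 4.69%. In primitive HSC 7 were higher, against 52.7%, and 1 of them by at least 4-fold, against 3.45%. The list median was -0.84, with an exact binomial 95% interval over genes of -1.41 to 0.03, against 0.07 over all measured genes. That interval treats the listed genes as independent and holds no spread between samples. It therefore cannot judge the difference between the populations. Rap1a, a small GTPase that activates integrins, read 456 on the primitive and 4536 on the maturing array (log2 -3.31), and its second probe set stood at -2.08. Tln1, the talin that binds beta chain tails, read 1646 and 5913 (log2 -1.85), with a second probe set at -0.28. Parvg, a parvin of blood cells, was higher in maturing HSC by at least 4.31-fold, and Crk by at least 3.93-fold, although the 5 probe sets of Crk ran from -1.98 to 0.84. Skap2, an adaptor of integrin activation in leukocytes, went the other way, with 68811 on the primitive and 10628 on the maturing array (log2 2.69). Fermt3, the kindlin of blood cells, stood at 0.36. The median stayed negative under every alternative and was closest to 0, at -0.23, when the median of each gene's probe sets was used.

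Chemokine receptors and their signalling genes had a median of -0.19 over 16 measured genes of 21 listed, with 6 higher in primitive and 10 higher in maturing HSC. The shares over all measured genes were 52.7% and 47.3%. Dock2, the Rac activator that leukocytes need for chemokine-driven movement, was higher in maturing HSC by at least 5.49-fold. It was the 1 gene of the 16 past 4-fold, against 4.69% of all measured genes toward maturing HSC. Rac1 read 4944 and 11076 (log2 -1.16), and both of its measured probe sets went that way. Rac2, the Rac of blood cells, stood at -0.17. Rhoh was higher in maturing HSC by at least 2.20-fold. Gnai2, the G protein subunit that couples to CXCR4, stood at 1.19 by 1 probe set and at 0.07 by another. Ackr3, the other receptor for CXCL12, read 68.0 and 168 and was not measured.

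Selectins and the enzymes that build their ligands had a median of -0.53 over 14 measured genes of 17 listed, 5 higher in primitive and 9 higher in maturing HSC, with none past 4-fold. The shares over all measured genes were 52.7% and 47.3%, and 3.45% and 4.69% at 4-fold. B4galt1, a galactosyltransferase, was higher in maturing HSC by at least 3.42-fold, and Glg1, an E-selectin ligand, at least 2.39-fold. St3gal6, a sialyltransferase, was higher in maturing HSC by at least 2.26-fold by 1 probe set and stood at 0.02 by another. Cd24a, a ligand of P-selectin, read 11432 and 21816 (log2 -0.93), and Selp stood at -0.83. Sele was higher in primitive HSC by at least 1.25-fold, and Fut7, the fucosyltransferase that completes the sugar on PSGL-1, was not measured.

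Partners of CD44 did not follow Cd44. Of 13 genes listed, 10 were measured, 8 higher in primitive and 2 higher in maturing HSC, with a median of 0.43 and none past 4-fold. The shares over all measured genes were 52.7% and 47.3%, and 3.45% and 4.69% at 4-fold. Some of the 8 were near equality or weak bounds: Ezr stood at 0.08, and Lyve1 and Vcan had bounds of 0.09 and 0.31. The ERM proteins tie CD44 to the cell cortex, and their genes differed: Rdx (radixin) read 6042 and 2568 (log2 1.23), although its probe sets ran from -1.56 to 1.23, and Msn (moesin) read 5464 and 9637 (log2 -0.82). Nf2, whose product merlin is related to them, was higher in primitive HSC by at least 2.55-fold by 1 probe set and stood at -0.93 by another. Has2, a hyaluronan synthase, was higher in primitive HSC by at least 1.98-fold. Spp1 was not analysed here. The median turned to -0.33 with the hybridisation controls set equal.

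Other adhesion molecules had a median of 0.24 over 17 measured genes of 21 listed, 9 higher in primitive and 8 higher in maturing HSC, with none past 4-fold. The shares over all measured genes were 52.7% and 47.3%, and 3.45% and 4.69% at 4-fold. Icam1, the ligand of LFA-1 and Mac-1, read 1657 and 3310, and Icam2 was higher in maturing HSC by at least 2.02-fold. Emcn, an endomucin found on stem cells and endothelium, read 647 and 2034 (log2 -1.65). Jam2 was higher in primitive HSC by at least 2.55-fold. The median turned to -0.07 with the median of probe sets and to -0.56 with the hybridisation controls set equal.

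Niche ligands and the proteases that cut them had a median of -0.37 over 13 measured genes of 15 listed, 4 higher in primitive and 9 higher in maturing HSC, with none past 4-fold. The shares over all measured genes were 52.7% and 47.3%, and 3.45% and 4.69% at 4-fold. Cxcl12, the ligand of CXCR4, read 347 and 293 and was not measured. Vcam1, the ligand of the alpha 4 integrin, was higher in maturing HSC by at least 1.29-fold, and Fn1 (fibronectin) read 741 and 1605 (log2 -1.12). Angpt1 and the laminin chain gene Lama5 were higher in maturing HSC by at least 3.10-fold and 2.84-fold, and the neutrophil protease gene Ctsg stood at -1.10.

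**Figure D4:**
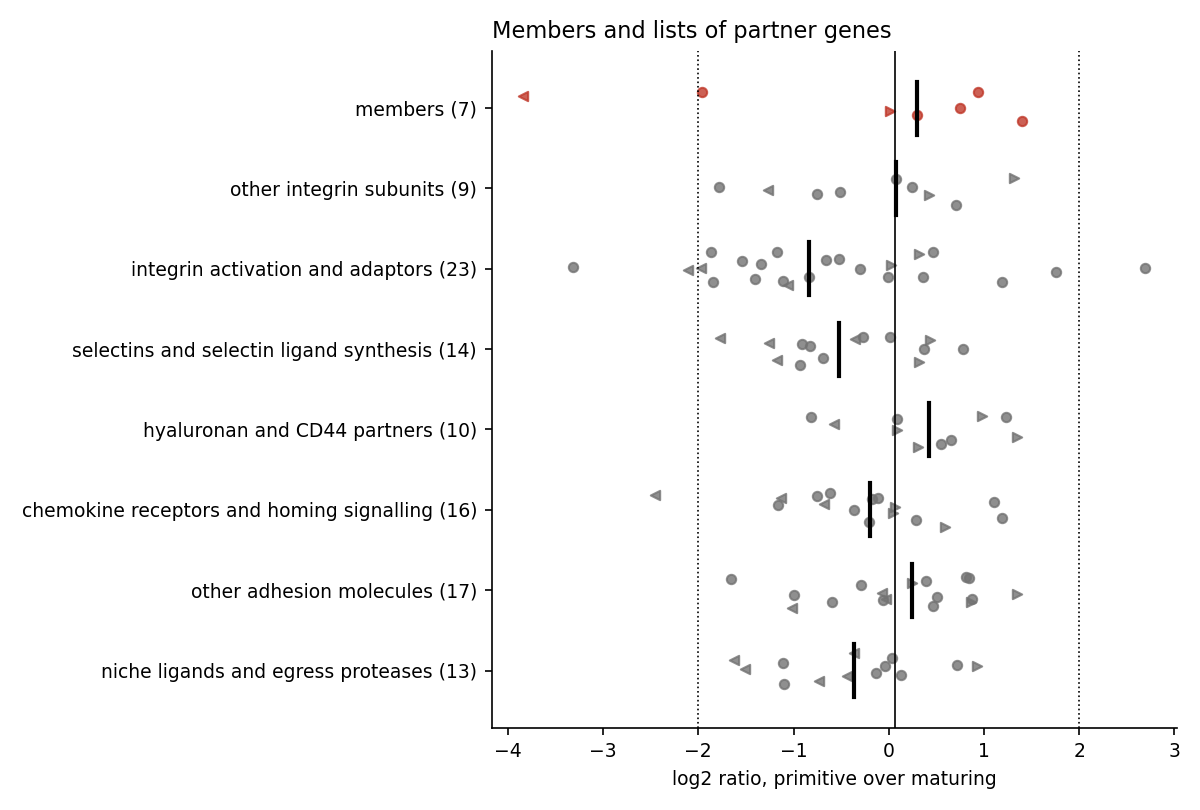
Log2 ratio of primitive over maturing (x) for each measured gene of the 9 receptor genes (red) and of 7 lists of related genes (grey), with the number measured in brackets. Circles are genes above the floor on both arrays, triangles are bounds pointing away from equality, thick bars are list medians, the thin line is the median of all measured genes (0.07) and dotted lines are 4-fold. Genes of integrin activation have the lowest median, -0.84, and Cd44 lies furthest left of all genes shown.

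The receptors studied here are also carried by mature blood cells, so markers of the sorted cells and of other cells were read beside them. Procr, a surface marker of primitive stem cells, read 11571 on the primitive and 1896 on the maturing array, Kit read 3802 and 5053, and Gata2 read 2487 and 2181. All 9 stem cell markers on the array were measured, 5 higher in primitive and 4 higher in maturing HSC. Abcg2 had a bound of 1.94 toward primitive HSC. Toward maturing HSC, Meis1 and Tek had bounds of -1.44 and -1.15, and Hlf stood at -1.25 by 1 probe set and near equality by another. The genes of this list and the following ones that are named beyond the brightest were chosen after their values were seen. Of all measured genes, 52.7% were higher in primitive and 47.3% in maturing HSC. By at least 4-fold, 3.45% and 4.69% were. These shares are the background for the counts of every marker list here. T and natural killer cell markers had a summed intensity of 58453 on the primitive and 11124 on the maturing array. Of 7 measured, 6 were higher in primitive HSC, 3 of them by at least 4-fold, and 1 was higher in maturing HSC. Ccl5 (37795 and 1511) and Cd3d (8673 and 44.2) carried most of the gap between the sums, while Nkg7 read 6299 and 7933. Klrd1 (1909 and 342.7), Gzma (1439 and 322.5) and Ncr1 (1178 and 173.8) had bounds of 2.11, 1.71 and 1.42 toward primitive HSC. The other CD3 chain genes, Cd3e (286.6 and 152.1) and Cd3g (124.9 and 387.9), were below the floor on both arrays. So was Cd2 (207.5 and 214.4), and Cd5 (541.5 and 41.7) gave a bound of only 0.30. Neutrophil and monocyte markers ran both ways, with sums of 121053 and 66247. Of 13 measured, 8 were higher in primitive HSC, none of them by 4-fold, among them S100a8 (log2 1.26), Camp (0.98) and Prtn3 (0.91). The other 5 were higher in maturing HSC, 2 of them past 4-fold: Mpo by at least 5.87-fold and Csf3r by at least 5.84-fold, with Ltf at -1.63, Ctsg at -1.10 and Csf1r at -0.67. B cell markers summed to 4244 and 5346, with 3 of 7 measured higher in primitive and 4 in maturing HSC and none past 4-fold, among them Cd22 at 0.68, Cd79b at -1.01 and Vpreb3 with a bound of -1.45. Megakaryocyte markers summed to 7651 and 6891, with 3 of 5 measured higher in primitive and 2 in maturing HSC. Of these Gp9 (1820 and 40.1) was higher in primitive HSC by at least 4.12-fold and Gp5 stood at 1.37, while Pf4 stood at -0.82, Itga2b at -0.51 and Gp1bb at 0.11. Erythroid markers summed to 4903 and 4176, with 1 of 3 measured higher in primitive HSC (Klf1 at 1.89) and 2 in maturing HSC (Tfrc at -0.51 and Epor at -0.29). Stromal and endothelial markers summed to 3388 and 3483, and all 7 measured were bounds, 3 toward primitive and 4 toward maturing HSC and none past 4-fold. Among them Col1a1 and Col3a1 were higher in primitive HSC by at least 1.67-fold and 1.49-fold, and Kdr and Vcam1 had bounds of -0.54 and -0.37. No marker on the array was at an intensity of 0 (0 genes). With the hybridisation controls set equal, S100a8, Camp and Prtn3 stood at 0.29, 0.004 and -0.07. Under that scaling Ccl5 stood at 3.67, Cd3d had a bound of 3.83 and Nkg7 stood at -1.31. Itgb2, Itgal, Selplg and Cxcr4, which lymphocytes and myeloid cells also express, were brighter in the main setting on the primitive array. The summed T, natural killer, neutrophil and monocyte markers of the main setting were higher on that array too. Cd44, which the same blood cells carry, was dimmer on the primitive array, and Itgam was below the floor on both arrays. The part of those cells in the receptor values was not tested. In such bulk samples, fewer cells of a type and less RNA per cell cannot be told apart.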

How the data were processed

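Each of 2 samples was hybridised to 1 mouse Affymetrix array. The deposited values are linear signal intensities per probe set, made by the authors with MAS5 (per the submitters' processing notes, with no version). The 2% trimmed means were 1000.6 (primitive) and 1000.4 (maturing), so the authors' scaling set both arrays to 1 mean and hides any difference in RNA content per cell. The number of arrays limits the precision.

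Intensities were brought to exactly 1 such mean, floored at 441.0 (percentile 50 of non-control probe sets) and compared as log2 ratios. A gene was represented by its probe set with the highest mean intensity. In the platform annotation, 20380 probe sets had 1 symbol and 691 had several, and no gene was named from the latter. The 9 receptors and all lists were chosen with earlier results of these data known. Named were all 9 receptors, the 4 largest ratios of each list, ligands and partners of the receptors, and the 3 brightest markers of each cell type. Further list genes and markers were named after their values were seen. Alternatives covered scaling, floor, fold threshold and probe set choice. Steps were tested on simulated data, with differences planted only in genes far above the floor on both arrays. Bounds at the floor and probe sets that disagree were therefore not covered. The work used pandas 2.3.3 and numpy 2.4.6 in Python 3.11.15, with statsmodels 0.14.6 for lowess, scipy 1.17.1 for trimmed means and matplotlib 3.10.9 for plots.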

Additional observations from a re-analysis of the deposited data

How the results depend on the processing

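Cd44 and Itga6 were lower in primitive HSC under all alternatives tried, and Cd44 was past 4-fold in each of them. The number of receptor genes past the threshold toward maturing HSC was 1, and 2 with the median ratio set to 0, the hybridisation controls set equal or a 2-fold threshold. Toward primitive HSC it was 0, and 1 at 2-fold. Over all genes the counts toward primitive and maturing HSC were 305 and 415, and became 91 and 1231 with the hybridisation controls set equal (6.88% toward primitive HSC against 42.4%), 761 and 998 with the floor at percentile 25, 165 and 126 at percentile 75, 1385 and 1559 at 2-fold and 66 and 60 at 8-fold. With the hybridisation controls set equal, 4 list medians left their exact binomial 95% intervals over genes: integrin activation (-1.81), selectins (-1.60), chemokine signalling (-1.17) and other adhesion molecules (-0.56). That scaling lowers each ratio above the floor on both arrays by the same 0.97, so these moves follow from the scaling itself. The intervals run over genes and hold no spread between samples. Why the controls were brighter on the primitive array was not tested. A floor at percentile 40 was added after seeing the data and gave Itga4 a bound of -0.51 and Itgam one of -0.24. With Itgb1 represented by its other measured probe set, also added after seeing the data, 2 receptor genes were past 4-fold toward maturing HSC and 0 toward primitive HSC, and the receptor median was 0.01. No paired analysis was possible because each group has 1 array. Signal over background limits Itga4, Itgam and Itgal.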
